A study of Mus musculus with 16 samples.

Results

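Fatty acid oxidation and ketogenesis were followed through 33 genes, chosen by symbol from the count table of 19574 genes, and all 33 were present and passed the filter on low counts that left 17122 genes to test. They are the genes for butyrate and fatty acid uptake and activation (Slc16a1, Acsl1, Acsl5, Acsf2, Acsm3), the carnitine shuttle (Cpt1a, Slc25a20, Cpt2, Crot), the acyl-CoA dehydrogenases and electron transfer (Acadvl, Acadl, Acadm, Acads, Etfa, Etfb, Etfdh), the later mitochondrial steps (Echs1, Hadha, Hadhb, Hadh, Acaa2, Acat1), unsaturated and peroxisomal substrates (Eci1, Eci2, Decr1, Ech1, Ehhadh, Acaa1a), ketone bodies (Bdh1) and regulation (Ppara, Pparg, Ppargc1a, Pdk4). Colon tumors were compared with adjacent normal colon of the same animals, in 5 Il23r ΔTreg mice (Il23rflflFoxp3YFP-Cre) and in 3 WT mice (Foxp3YFP-Cre). Il23r ΔTreg mice lack IL-23R, a receptor chain for the cytokine IL-23, in FOXP3+ regulatory T (Treg) cells, where the Foxp3 locus drives the Cre that both genotypes carry. All were C57BL/6 males that entered the protocol at 7-8 weeks of age, received the carcinogen azoxymethane at 10 mg/kg and then 3 cycles of 5 days of 3.5% dextran sulfate sodium in the drinking water, each with 16 days of recovery. RNA came from whole tissue, so that in every sample fewer cells of a type and less RNA per cell cannot be told apart.

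Colonocytes take butyrate, a product of the gut bacteria, as their main fuel. Butyrate enters through monocarboxylate transporters and is activated to its CoA ester inside the mitochondrion, whereas long-chain fatty acids are activated outside it and enter as carnitine esters. In each turn of beta-oxidation a dehydrogenase, a hydratase, a second dehydrogenase and a thiolase shorten the chain by one acetyl-CoA, which enters the citric acid cycle or is made into ketone bodies. PPAR nuclear receptors, with their RXR partners and PGC-1 coactivators, switch on many of these genes.

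Each library held between 34418067 and 60836474 counts. The Il23r ΔTreg mice and the WT mice carried different cage labels (all 3 WT mice carried a cage label that no Il23r ΔTreg mouse had), so the effects of genotype and of cage cannot be told apart, although the study describes co-housing before treatment. The tumor library of WT mouse2988 stood apart, with 29.7% of its counts on Rn18s, an 18S ribosomal RNA gene (0.343% to 19.4% in the other 15 libraries), and a normalization factor of 0.670, against 0.819 to 1.18 in those 15. Il23r itself had 1 to 9 counts per library in Il23r ΔTreg tumors and 6 to 14 in their adjacent normal tissue, against 0 to 10 in WT tumors and 7 in each WT adjacent normal library, too few in whole tissue to check the labels. The tissue labels were checked against marker lists in tumors relative to adjacent normal tissue. All 10 smooth muscle markers were called lower in both genotypes, beside 16.1% of all genes in Il23r ΔTreg mice and 12.9% in WT mice. Of 5 crypt and proliferation markers, 4 were called higher in Il23r ΔTreg mice and 3 in WT mice, beside 9.53% and 12.1% of all genes. Summed, these 5 overlapped in WT mice: the adjacent normal library of mouse2990 had 779 CPM, against 410 to 759 CPM in WT tumors.

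Many of the fatty acid oxidation genes fell in tumors, relative to adjacent normal tissue, in both genotypes. A gene was called at a p-value under 0.05, adjusted by the Benjamini-Hochberg method over all genes tested with edgeR's quasi-likelihood test, together with a log2 fold change larger than 1 in either direction; all adjusted p-values below are from that fit. In Il23r ΔTreg mice 11 of 33 genes (33.3%) were called lower in tumors, against 16.1% of all genes tested, and 1 (Pdk4) was called higher, against 9.53%. In WT mice 13 of 33 (39.4%) were called lower, against 12.9% of all genes, and 0 higher, against 12.1%. By adjusted p alone 24 genes (72.7%) were lower in Il23r ΔTreg tumors, against 25.3% of all genes, and 21 (63.6%) in WT tumors, against 20.1%. By the same rule 2 (Pdk4 and Acsl1) were higher in Il23r ΔTreg tumors, against 21.5% of all genes, and 1 (Acsl5) in WT tumors, against 19.3%. Some genes that passed by adjusted p alone did not stay under 0.05 in every alternative setting, as given by gene below. The median log2 fold change over the 33 genes was -0.76 in Il23r ΔTreg mice and -0.67 in WT mice, beside medians of -0.001 and -0.011 over all genes, and 28 of the 33 had a negative log2 fold change in each genotype. The 33 genes were chosen with earlier results of these data known, so these shares describe them and are not an independent test.

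**Figure D1:**
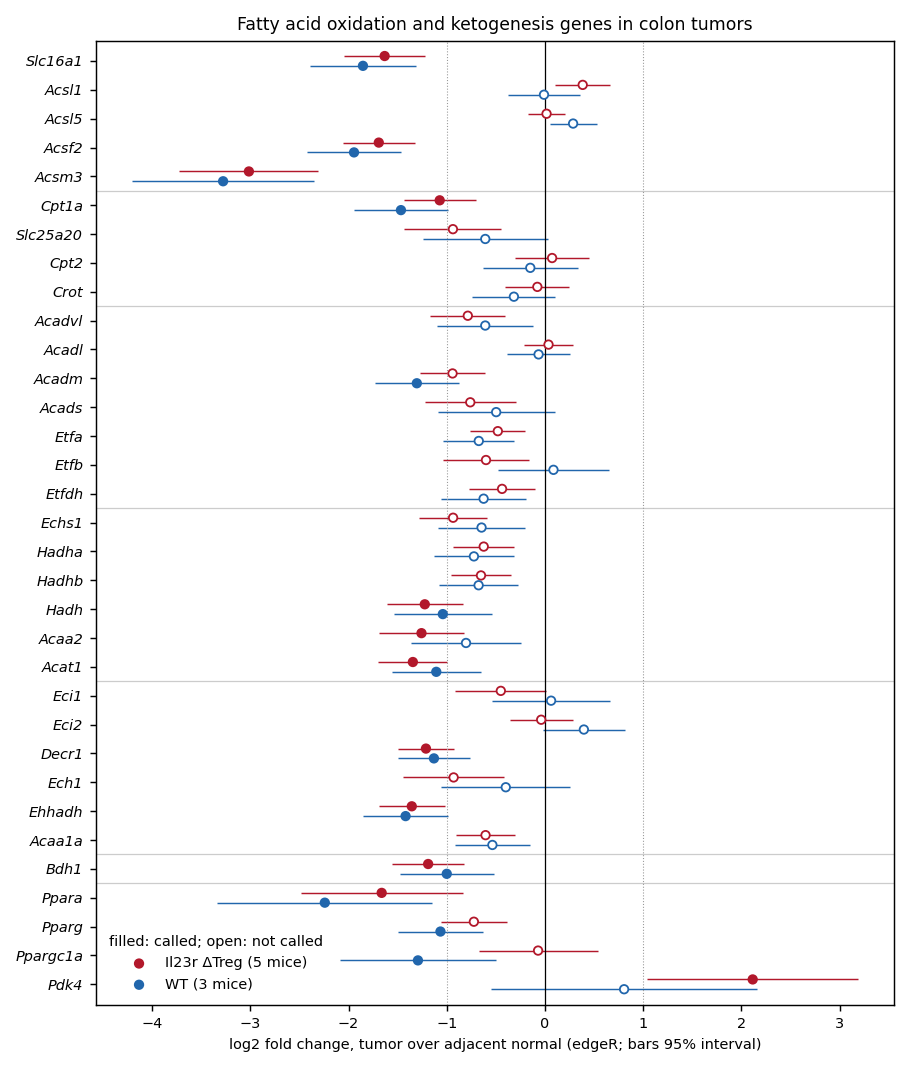
Log2 fold change of each of the 33 genes (rows, grouped by role) in tumor over adjacent normal tissue, with 95% intervals, in Il23r ΔTreg mice (red, n = 5) and WT mice (blue, n = 3); filled points were called and dotted lines mark the fold limit. Most points lie left of 0 in both genotypes, with Acsm3 farthest left, and Pdk4 is the filled point on the right.

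The same 10 genes were called lower in both genotypes: Slc16a1, Acsf2, Acsm3, Cpt1a, Hadh, Acat1, Decr1, Ehhadh, Bdh1 and Ppara. Acaa2 was called lower and Pdk4 higher in Il23r ΔTreg mice alone, and Acadm, Pparg and Ppargc1a were called lower in WT mice alone; none of these 5 was called in the test of the difference between genotypes given further on. The values of the 33 genes did not overlap between tumors and adjacent normal tissue, with tumors below, for 21 genes (63.6%) in Il23r ΔTreg mice and for 21 (63.6%) in WT mice, where 20% and 25.4% of all genes tested did so. Within mice, 24 genes were lower in the tumor in all 5 Il23r ΔTreg mice, 23 in all 3 WT mice, and 21 in all 8 mice.

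Among enzymes and transporters, the largest decreases were at the entry of butyrate and medium-chain acids. Values per library are CPM (counts scaled to one common library size, with TMM factors), given in the order mouse2901, mouse2902, mouse2903, mouse2904 and mouse3883 for Il23r ΔTreg and mouse2988, mouse2989 and mouse2990 for WT. Acsm3, a mitochondrial synthetase that activates butyrate and medium-chain acids, was at 22.3, 20.005, 25.9, 37.4 and 27.4 CPM in Il23r ΔTreg tumors, against 125, 249, 286, 222 and 193 CPM in Il23r ΔTreg adjacent normal tissue. It was at 13.97, 45.2 and 17.3 CPM in WT tumors, against 174, 263 and 307 CPM in WT adjacent normal tissue. Every tumor lay below every adjacent normal sample, and the highest tumor value was that of WT mouse2989. The log2 fold change was -3.02 (SE 0.32, adjusted p = 4.36e-06) in Il23r ΔTreg mice and -3.28 (SE 0.42, adjusted p = 7.27e-05) in WT mice.

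Slc16a1, which encodes the transporter MCT1 for butyrate, lactate and ketone bodies, was at 63.7, 75.3, 54.9, 77.4 and 57.5 CPM in Il23r ΔTreg tumors, against 147, 203, 240.1, 257 and 173 CPM in Il23r ΔTreg adjacent normal tissue. In WT mice it was at 56.7, 84.6 and 48.5 CPM in WT tumors, against 184, 249 and 254 CPM in WT adjacent normal tissue. Tumors lay below in both genotypes without overlap, and the log2 fold change was -1.63 (SE 0.19, adjusted p = 8.47e-06) in Il23r ΔTreg mice and -1.85 (SE 0.25, adjusted p = 8.96e-05) in WT mice. Acsf2, another medium-chain acyl-CoA synthetase, was at 21.4, 15.6, 18.5, 16.9 and 14.2 CPM in Il23r ΔTreg tumors, against 54.3, 60.8, 47.03, 69.8 and 47.8 CPM in Il23r ΔTreg adjacent normal tissue. In WT mice Acsf2 was at 11.6, 20.5 and 17.5 CPM in WT tumors, against 53.8, 68.3 and 69.2 CPM in WT adjacent normal tissue. Its groups were again fully apart, with a log2 fold change of -1.69 (SE 0.17, adjusted p = 2.35e-06) in Il23r ΔTreg mice and -1.95 (SE 0.22, adjusted p = 3.50e-05) in WT mice.

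The long-chain acyl-CoA synthetases Acsl1 and Acsl5 were not called in either genotype. Acsl1 had 47.1, 49.1, 53.8, 45.3 and 49.2 CPM in Il23r ΔTreg tumors, against 32.4, 33.1, 36.04, 35.7 and 50.1 CPM in Il23r ΔTreg adjacent normal tissue, a log2 fold change of 0.38 (SE 0.13, adjusted p = 0.0232) that is short of the fold limit. The overlap came from the adjacent normal tissue of mouse3883, which was above 4 of the 5 tumors. In WT mice Acsl1 had a log2 fold change of -0.01 (SE 0.17, adjusted p = 0.968). Acsl5, the main long-chain synthetase of the intestine, was at 0.02 (SE 0.09, adjusted p = 0.896) in Il23r ΔTreg mice and at 0.29 (SE 0.11, adjusted p = 0.0498) in WT mice, where all 3 tumors lay above all 3 adjacent normal samples. Over the alternatives the adjusted p reached 0.252 for Acsl5 in WT mice and 0.0841 for Acsl1 in Il23r ΔTreg mice.

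**Figure D2:**
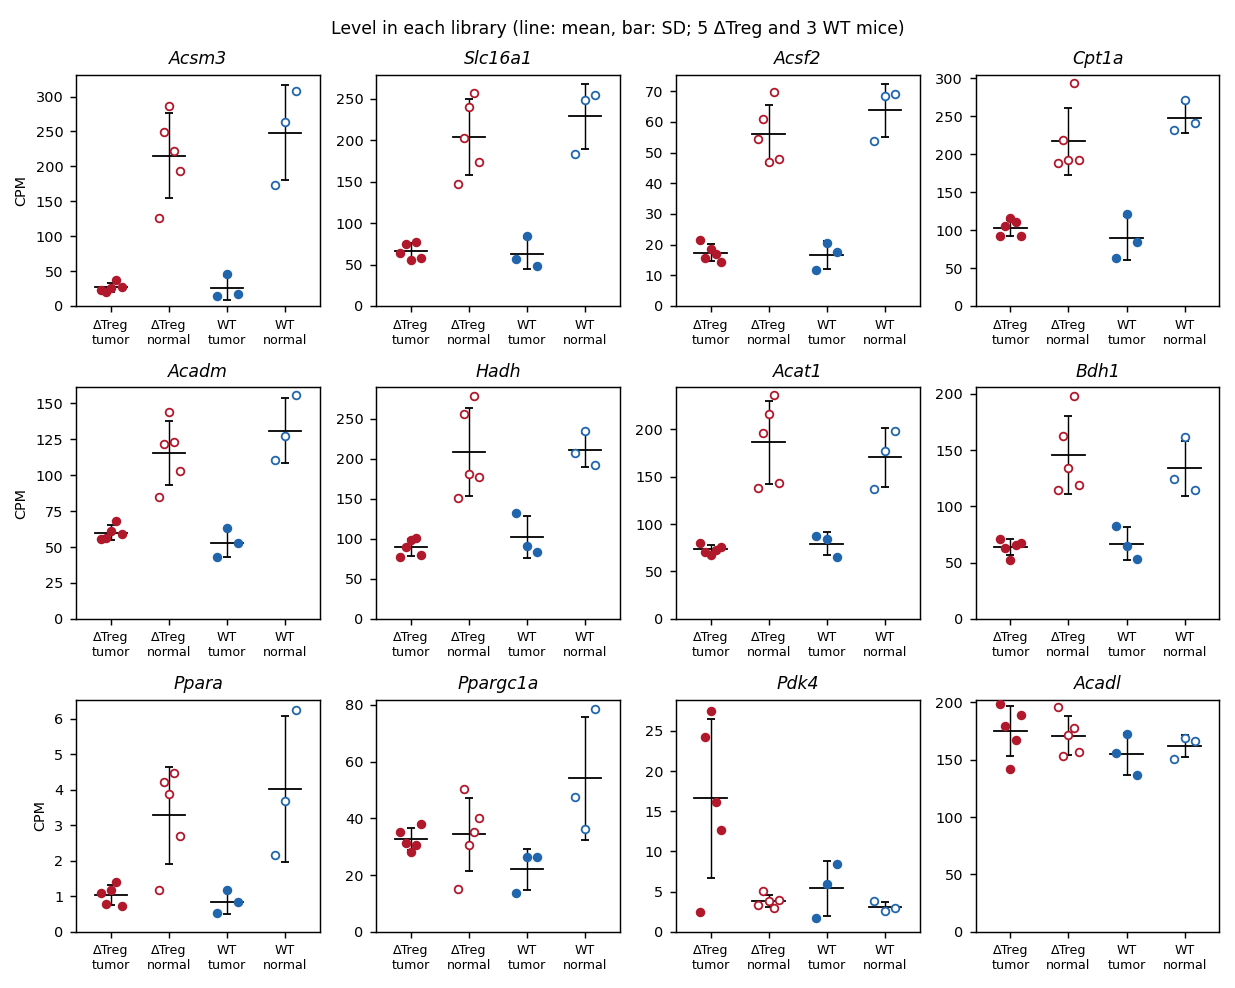
CPM per library of 12 of the genes, in Il23r ΔTreg tumor and adjacent normal tissue (red, n = 5 each) and WT tumor and adjacent normal tissue (blue, n = 3 each), with the mean as a line and the SD as a bar. Filled tumor points lie below the open adjacent normal points for Acsm3, Slc16a1, Acsf2, Cpt1a, Acadm, Hadh, Acat1 and Bdh1, while Acadl overlaps and Pdk4 is high in 4 Il23r ΔTreg tumors.

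In the carnitine shuttle the first step was the one called lower. Cpt1a, the rate-limiting carnitine palmitoyltransferase of the outer mitochondrial membrane, was at 92.6, 105, 116, 110.4 and 92.5 CPM in Il23r ΔTreg tumors, against 188, 219, 192, 294 and 193 CPM in Il23r ΔTreg adjacent normal tissue. It was at 63.1, 121 and 84.8 CPM in WT tumors, against 232, 271 and 241 CPM in WT adjacent normal tissue. The groups did not overlap in either genotype, and the log2 fold change was -1.07 (SE 0.17, adjusted p = 0.000108) in Il23r ΔTreg mice and -1.47 (SE 0.22, adjusted p = 0.000193) in WT mice. Without mouse2904, whose adjacent normal tissue held the highest value, the Il23r ΔTreg value was -0.97 (adjusted p = 0.000631), just inside the fold limit, and over all alternatives its adjusted p was at most 0.00411.

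Slc25a20, the carnitine-acylcarnitine translocase, had a log2 fold change of -0.94 (SE 0.23, adjusted p = 0.00314) in Il23r ΔTreg mice and -0.61 (SE 0.29, adjusted p = 0.108) in WT mice; it was lower in the tumor of all 8 mice and was past the fold limit without Il23r ΔTreg mouse2902 (-1.03) or mouse2903 (-1.005). Cpt2, which frees the fatty acid again inside the mitochondrion, was at 0.07 (SE 0.17, adjusted p = 0.758) and -0.15 (SE 0.22, adjusted p = 0.615) in Il23r ΔTreg and WT mice. Crot, a carnitine octanoyltransferase of the peroxisome, was at -0.08 (SE 0.15, adjusted p = 0.699) in Il23r ΔTreg mice and -0.32 (SE 0.19, adjusted p = 0.206) in WT mice. Neither Cpt2 nor Crot separated tumors from adjacent normal tissue in any genotype.

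Of the acyl-CoA dehydrogenases 1 was called, in WT mice. Acadm, the medium-chain enzyme, was at 55.6, 56.5, 61.2, 68.4 and 58.8 CPM in Il23r ΔTreg tumors, against 85.2, 122, 144, 123 and 103 CPM in Il23r ΔTreg adjacent normal tissue. It was at 42.95, 63.5 and 52.6 CPM in WT tumors, against 110.5, 127 and 156 CPM in WT adjacent normal tissue. All tumors lay below all adjacent normal samples of their genotype, with a log2 fold change of -0.94 (SE 0.15, adjusted p = 0.000116) in Il23r ΔTreg mice, inside the fold limit, and -1.31 (SE 0.20, adjusted p = 0.000186) in WT mice, beyond it. In Il23r ΔTreg mice it was past the limit without mouse2901 (-1.01).

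Acadl, the long-chain enzyme, had 199, 179, 142, 167 and 189 CPM in Il23r ΔTreg tumors, against 196, 153, 172, 177 and 157 CPM in Il23r ΔTreg adjacent normal tissue. The WT samples had 155, 173 and 136 CPM in WT tumors, against 151, 169 and 166 CPM in WT adjacent normal tissue. These ranges overlapped in both genotypes, with log2 fold changes of 0.04 (SE 0.11, adjusted p = 0.823) in Il23r ΔTreg mice and -0.07 (SE 0.15, adjusted p = 0.747) in WT mice. The very-long-chain enzyme Acadvl was at -0.79 (SE 0.17, adjusted p = 0.00174) in Il23r ΔTreg mice and -0.61 (SE 0.23, adjusted p = 0.0429) in WT mice. Its adjusted p in WT mice reached 0.215 over the alternatives. The short-chain enzyme Acads was at -0.76 (SE 0.21, adjusted p = 0.00801) in Il23r ΔTreg mice and -0.50 (SE 0.27, adjusted p = 0.158) in WT mice.

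The electrons of these enzymes pass through the flavoprotein of Etfa and Etfb to its dehydrogenase Etfdh. Etfa was at -0.48 (SE 0.13, adjusted p = 0.00627) and Etfdh at -0.44 (SE 0.15, adjusted p = 0.0278) in Il23r ΔTreg mice, and they were at -0.67 (SE 0.17, adjusted p = 0.00532) and -0.63 (SE 0.20, adjusted p = 0.0209) in WT mice, all inside the fold limit and without overlap between tumor and adjacent normal samples. Over the alternatives the adjusted p of Etfdh reached 0.117 in Il23r ΔTreg mice and 0.161 in WT mice. That of Etfa reached 0.0717 in WT mice. Etfb was at -0.60 (SE 0.20, adjusted p = 0.0221) in Il23r ΔTreg mice and 0.09 (SE 0.26, adjusted p = 0.812) in WT mice. Its adjusted p in Il23r ΔTreg mice reached 0.0960 over the alternatives. The WT value of Etfb rests on mouse2988, whose tumor had 146 CPM, against 74.9 and 75.9 CPM in the other WT tumors and 79.1 to 108 CPM in WT adjacent normal tissue.

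All 6 genes of the later mitochondrial steps were lower by adjusted p alone in both genotypes. In WT mice this depended on the setting for some. Over the alternatives the adjusted p there reached 0.214 for Echs1, 0.168 for Acaa2, 0.0802 for Hadha and 0.0637 for Hadhb. For Hadh and Acat1 it was at most 0.0306 and 0.0223. Hadh, the short-chain 3-hydroxyacyl-CoA dehydrogenase, was at 77.1, 89.8, 99.1, 101 and 80.3 CPM in Il23r ΔTreg tumors, against 151, 256, 181, 279 and 177 CPM in Il23r ΔTreg adjacent normal tissue. WT mice had 133, 91.3 and 83.9 CPM in WT tumors, against 207, 234 and 192 CPM in WT adjacent normal tissue. Groups did not overlap, and the log2 fold change was -1.22 (SE 0.18, adjusted p = 5.71e-05) in Il23r ΔTreg mice and -1.04 (SE 0.23, adjusted p = 0.00264) in WT mice, where it fell short of the fold limit without WT mouse2989 (-0.88) or mouse2990 (-0.98) and without Il23r ΔTreg mouse2902 or mouse2903 (-0.99 each).

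Acat1, the mitochondrial acetoacetyl-CoA thiolase that serves both ketone body formation and use, was at 80.5, 69.997, 67.5, 72.7 and 75.3 CPM in Il23r ΔTreg tumors, against 138, 196, 216, 236 and 144 CPM in Il23r ΔTreg adjacent normal tissue. It was at 87.7, 84.5 and 65.3 CPM in WT tumors, against 137, 177 and 198 CPM in WT adjacent normal tissue. No tumor reached the level of an adjacent normal sample, with a log2 fold change of -1.35 (SE 0.16, adjusted p = 1.08e-05) in Il23r ΔTreg mice and -1.11 (SE 0.21, adjusted p = 0.000868) in WT mice (-0.87 without mouse2990). Acaa2, the 3-ketoacyl-CoA thiolase of the mitochondrion, was at 34.2, 35.7, 32.7, 32.1 and 34.4 CPM in Il23r ΔTreg tumors, against 55.2, 106, 68.02, 115 and 60.5 CPM in Il23r ΔTreg adjacent normal tissue. It was at 56.5, 34.5 and 37.7 CPM in WT tumors, against 74.01, 85.2 and 65.2 CPM in WT adjacent normal tissue. Again tumors lay below, with a log2 fold change of -1.26 (SE 0.20, adjusted p = 0.000117) in Il23r ΔTreg mice and -0.80 (SE 0.26, adjusted p = 0.0218) in WT mice, where it was past the limit without mouse2988 (-1.07) or without only its tumor library (-1.01).

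Echs1, the short-chain enoyl-CoA hydratase, was at -0.94 (SE 0.16, adjusted p = 0.000205) in Il23r ΔTreg mice and -0.65 (SE 0.20, adjusted p = 0.0211) in WT mice. Hadha and Hadhb, the subunits of the trifunctional protein for long chains, were close to each other: -0.62 and -0.65 in Il23r ΔTreg mice and -0.72 and -0.68 in WT mice, with adjusted p-values of 0.00148 to 0.00932. In Il23r ΔTreg tumors Hadhb ranged only from 86.4 to 98.7 CPM, against 115 to 197 CPM in Il23r ΔTreg adjacent normal tissue.

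**Figure D3:**
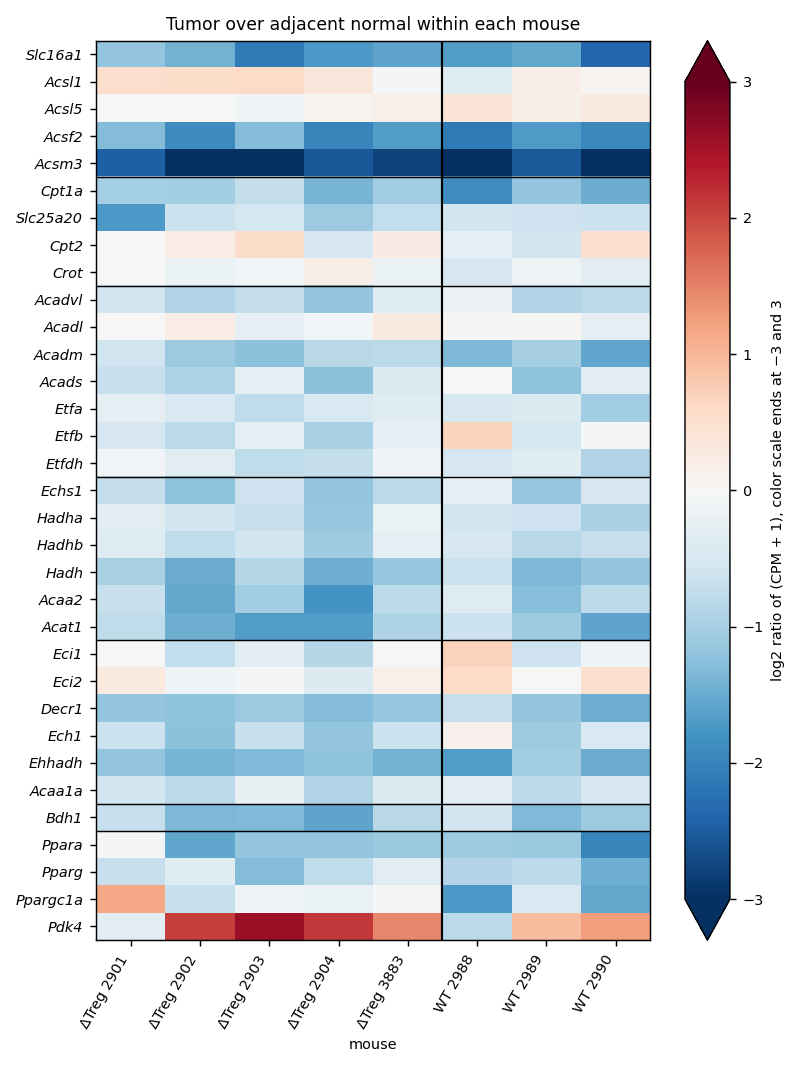
Log2 ratio of CPM + 1 in the tumor over the adjacent normal tissue of the same mouse, for the 33 genes (rows, grouped by role) in 5 Il23r ΔTreg and 3 WT mice (columns); blue is lower and red higher in the tumor. Blue fills the rows of 21 genes in all 8 mice, the Pdk4 row is red in 4 Il23r ΔTreg and 2 WT mice, and WT mouse2988 has red cells at Etfb, Eci1 and Eci2.

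Among genes for unsaturated chains, Decr1, the mitochondrial 2,4-dienoyl-CoA reductase, was at 21.9, 25.3, 27.7, 28.2 and 22.9 CPM in Il23r ΔTreg tumors, against 50.04, 59.5, 60.2, 70.4 and 51.8 CPM in Il23r ΔTreg adjacent normal tissue. WT mice had 33.3, 25.2 and 23.3 CPM in WT tumors, against 54.7, 57.9 and 66.5 CPM in WT adjacent normal tissue. The groups did not overlap, and the log2 fold change was -1.21 (SE 0.13, adjusted p = 4.18e-06) in Il23r ΔTreg mice and -1.13 (SE 0.17, adjusted p = 0.000178) in WT mice (-0.95 without mouse2990). Ech1, a dienoyl-CoA isomerase, was at -0.93 (SE 0.24, adjusted p = 0.00429) in Il23r ΔTreg mice and -0.40 (SE 0.30, adjusted p = 0.304) in WT mice. The enoyl-CoA isomerases Eci1 and Eci2 did not pass the test in either genotype, at -0.45 and -0.04 in Il23r ΔTreg mice and 0.06 and 0.40 in WT mice. For Eci1, Eci2 and Ech1 the tumor of WT mouse2988 had 54.4, 64.9 and 132 CPM, above the other tumors of both genotypes.

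In the peroxisome, Ehhadh, the bifunctional hydratase and dehydrogenase, was at 14.2, 14.5, 16.3, 19.5 and 13.7 CPM in Il23r ΔTreg tumors, against 33.6, 39.9, 42.3, 46.4 and 38.2 CPM in Il23r ΔTreg adjacent normal tissue. It was at 11.6, 20.7 and 14.2 CPM in WT tumors, against 39.1, 44.02 and 41.6 CPM in WT adjacent normal tissue. All 8 tumors lay below all 8 adjacent normal samples, with a log2 fold change of -1.36 (SE 0.15, adjusted p = 6.61e-06) in Il23r ΔTreg mice and -1.42 (SE 0.20, adjusted p = 0.000119) in WT mice. Acaa1a, a peroxisomal thiolase, was at -0.61 (SE 0.14, adjusted p = 0.00193) in Il23r ΔTreg mice and -0.54 (SE 0.18, adjusted p = 0.0252) in WT mice. Its adjusted p in WT mice reached 0.162 over the alternatives.

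Bdh1, the mitochondrial dehydrogenase that interconverts the ketone bodies acetoacetate and beta-hydroxybutyrate, was at 70.9, 62.9, 52.7, 65.7 and 67.1 CPM in Il23r ΔTreg tumors, against 114, 162, 134, 198 and 119 CPM in Il23r ΔTreg adjacent normal tissue. In WT mice it was at 82.8, 64.3 and 53.3 CPM in WT tumors, against 125, 162 and 115 CPM in WT adjacent normal tissue. The groups did not overlap, and the log2 fold change was -1.19 (SE 0.17, adjusted p = 4.69e-05) in Il23r ΔTreg mice. In WT mice it was -1.0005 (SE 0.22, adjusted p = 0.00245), at the edge of the fold limit, and 9 alternative settings put it between -0.82 and -0.99.

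The regulators held the gene with the lowest counts, Ppara, and the largest differences of the tumor effect between genotypes, those of Pdk4 and Ppargc1a, neither of which passed the test. Ppara, the nuclear receptor that drives fatty acid oxidation genes in liver, was at 1.10, 0.781, 1.17, 1.41 and 0.717 CPM in Il23r ΔTreg tumors, against 1.16, 4.20, 3.87, 4.46 and 2.69 CPM in Il23r ΔTreg adjacent normal tissue. It was at 0.518, 1.16 and 0.823 CPM in WT tumors, against 2.16, 3.69 and 6.23 CPM in WT adjacent normal tissue. Tumors and adjacent normal samples overlapped in Il23r ΔTreg mice through mouse2901, whose 2 samples were alike, and did not in WT mice. The log2 fold change was -1.66 (SE 0.38, adjusted p = 0.00202) in Il23r ΔTreg mice and -2.24 (SE 0.50, adjusted p = 0.00284) in WT mice, from as few as 12 counts in a library.

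Pparg, a PPAR receptor abundant in colonic epithelium, was at 20.99, 28.3, 21.001, 28.7 and 28.3 CPM in Il23r ΔTreg tumors, against 34.6, 36.6, 53.5, 49.6 and 36.2 CPM in Il23r ΔTreg adjacent normal tissue. In WT mice it was at 29.8, 31.6 and 24.4 CPM in WT tumors, against 55.3, 54.7 and 69.3 CPM in WT adjacent normal tissue. Tumors lay below adjacent normal tissue in both genotypes, with a log2 fold change of -0.72 (SE 0.15, adjusted p = 0.00124) in Il23r ΔTreg mice, inside the fold limit, and -1.06 (SE 0.20, adjusted p = 0.000912) in WT mice (-0.85 without mouse2990). Ppargc1a, which encodes the coactivator PGC-1alpha, was at 35.1, 31.4, 28.05, 30.7 and 38.1 CPM in Il23r ΔTreg tumors, against 15.2, 50.5, 30.6, 35.3 and 40.03 CPM in Il23r ΔTreg adjacent normal tissue. It was at 13.6, 26.2 and 26.3 CPM in WT tumors, against 47.6, 36.3 and 78.4 CPM in WT adjacent normal tissue. The Il23r ΔTreg groups overlapped and the WT groups did not, with a log2 fold change of -0.07 (SE 0.28, adjusted p = 0.857) in Il23r ΔTreg mice and -1.29 (SE 0.37, adjusted p = 0.0116) in WT mice. The WT call was lost without mouse2988 (-1.14, adjusted p = 0.0641), without only its tumor library (-1.004, adjusted p = 0.0663) and without mouse2990 (-1.07, adjusted p = 0.0814), the adjusted p ranging from 0.00257 over all alternatives.

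Pdk4, the kinase that turns off pyruvate dehydrogenase and so spares glucose carbon when fatty acids are burned, went the other way. It was at 2.50, 24.2, 27.5, 16.1 and 12.6 CPM in Il23r ΔTreg tumors, against 3.34, 5.03, 3.83, 2.91 and 4.003 CPM in Il23r ΔTreg adjacent normal tissue. It was at 1.73, 5.98 and 8.46 CPM in WT tumors, against 3.77, 2.59 and 2.94 CPM in WT adjacent normal tissue. Of the 5 Il23r ΔTreg tumors 4 were above every other library of the study, and the tumor of mouse2901 was below its own adjacent normal tissue. The log2 fold change was 2.12 (SE 0.49, adjusted p = 0.00243) in Il23r ΔTreg mice, called higher, and 0.81 (SE 0.62, adjusted p = 0.316) in WT mice. Mouse mouse2901 is also the one whose libraries carry different cage labels, and in the 3 Il23r ΔTreg mice that share a cage label on both libraries (mouse2902, mouse2903 and mouse2904) Pdk4 was again called, the only gene of the 33 called higher there.

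Between genotypes, none of the 33 genes passed the edgeR test. In tumors, 0 were called lower in Il23r ΔTreg than in WT mice, against 1.58% of all genes tested, and 0 higher, against 0.146% (by adjusted p alone 0 in each direction, against 1.8% and 0.304%); 4 had an unadjusted p under 0.05, 2 in each direction. The median log2 difference between Il23r ΔTreg and WT tumors was -0.01 and, apart from Pdk4, each gene lay between -0.56 (Slc25a20, adjusted p = 0.235) and 0.57 (Ppargc1a, adjusted p = 0.325). Pdk4 had the largest difference, 1.61 (SE 0.58, adjusted p = 0.152). It was called with DESeq2 (1.601, adjusted p = 0.0464) and without mouse2901 (1.89, adjusted p = 0.0417), and its adjusted p ranged from 0.0417 to 0.476 over all alternatives. Acsl1 had the smallest adjusted p of the 33, at 0.51 (SE 0.15, adjusted p = 0.0887), inside the fold limit (adjusted p = 0.0427 to 0.366 over the alternatives, the lowest with DESeq2), and all 5 Il23r ΔTreg tumors, at 45.3 to 53.8 CPM, lay above the 3 WT tumors, at 27.5 to 39.8 CPM. Tumors of the genotypes did not overlap for 6 genes: Acsl1, Etfdh and Ppargc1a were above WT, where 9.34% of all genes were, and Etfb, Echs1 and Acaa1a below, where 7.09% of all genes were.

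In adjacent normal tissue 0 genes were called in either direction, as were 0% of all genes for lower and 0.00584% for higher, and 2 had an unadjusted p under 0.05. These were Pparg at -0.51 (SE 0.17, adjusted p = 0.964) and Acsl5 at 0.24 (SE 0.10, adjusted p = 0.964); both had groups that did not overlap, as did 1.4% of all genes for lower and 1.59% for higher. For the difference of the tumor effect (Il23r ΔTreg minus WT), 0 of 33 genes were called, as were 0% of all genes in each direction; 1 of the 33 had an unadjusted p under 0.05. That gene was Ppargc1a at 1.22 (SE 0.46, adjusted p = 0.278), and Pdk4 was at 1.31 (SE 0.78, adjusted p = 0.416). DESeq2 and limma also called 0 of the 33 in this test. Over all 17122 genes, DESeq2 called 327 lower and 22 higher there, and limma 0 in each direction. With 3 WT mice the intervals are wide, so these tests do not show that the genotypes were alike: the standard error of the difference ranged from 0.14 (Acsl5) to 0.78 (Pdk4).

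The spread among mice differed by group. The median coefficient of variation over the 33 genes was 9.8% in Il23r ΔTreg tumors and 22.5% in Il23r ΔTreg adjacent normal tissue, against 24.1% in WT tumors and 13.8% in WT adjacent normal tissue. Over the 10489 genes with a mean of at least 10 CPM the same medians were 10%, 18%, 22.8% and 17.8%. The narrowest genes in Il23r ΔTreg tumors included Eci1 (26.5 to 27.4 CPM) and Etfdh (61.4 to 65.6 CPM). In Il23r ΔTreg adjacent normal tissue, mouse2902 and mouse2904 had the highest level of many of the genes: the mean log2(CPM + 1) over the 33 genes was 6.48 and 6.58 in those mice, against 6.04 to 6.29 in the other 3. The same mice had the highest summed level of 8 pan-epithelial markers, 12832 and 16455 CPM, against 9512 to 10560 CPM in the other 3, and the part of epithelial content in this spread was not tested.

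Over all libraries, the mean log2(CPM + 1) of the 33 genes was 5.50 to 5.67 in Il23r ΔTreg tumors and 6.04 to 6.58 in their adjacent normal tissue, against 5.50 to 5.67 in WT tumors and 6.27 to 6.45 in WT adjacent normal tissue. No tumor reached the lowest adjacent normal sample. The pan-epithelial markers (Epcam, Krt8, Cdh1, Vil1 and others) summed to 8986 to 10262 CPM in Il23r ΔTreg tumors and 9512 to 16455 CPM in adjacent normal tissue, against 8721 to 17505 CPM in WT tumors and 9275 to 14757 CPM in WT adjacent normal tissue. Of these 8 markers 0 were called in Il23r ΔTreg mice, and 0 were called lower and 1 higher in WT mice, with median log2 fold changes of -0.14 and -0.11. Of 10 markers of mature colonocytes, 4 were called lower and 1 higher in each genotype, beside 16.1% and 9.53% of all genes in Il23r ΔTreg mice and 12.9% and 12.1% in WT mice. Their summed level was 1971 to 7503 CPM in Il23r ΔTreg tumors and 7694 to 13321 CPM in adjacent normal tissue, against 5951 to 11328 CPM in WT tumors and 9209 to 14874 CPM in WT adjacent normal tissue, so that the WT groups overlapped.

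Smooth muscle markers, all 10 called lower in both genotypes, summed to 249 to 1708 CPM in Il23r ΔTreg tumors and 7505 to 11274 CPM in adjacent normal tissue, against 620 to 899 CPM in WT tumors and 6856 to 8911 CPM in WT adjacent normal tissue. Enteric neuron and glia markers were called lower for 8 of 9 genes in both genotypes, and neutrophil markers were called higher for 4 of 4. Of 6 macrophage markers 3 were called lower in Il23r ΔTreg tumors, of 3 B cell markers 3 and of 4 T cell markers 1, beside 16.1% of all genes. In WT mice 0 of these markers were called lower, and 3 of the 4 T cell markers were called higher, beside 12.1% of all genes. Between tumors of the genotypes, 3 macrophage, 2 B cell and 4 T cell markers were called lower in Il23r ΔTreg mice, beside 1.58% of all genes. Of the 10 colonocyte markers 2 were also called lower there and 0 higher. Their median log2 difference was -1.19, and 9 of the 10 were negative. The part of these cell types in the levels of the 33 genes was not tested.

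**Figure D4:**
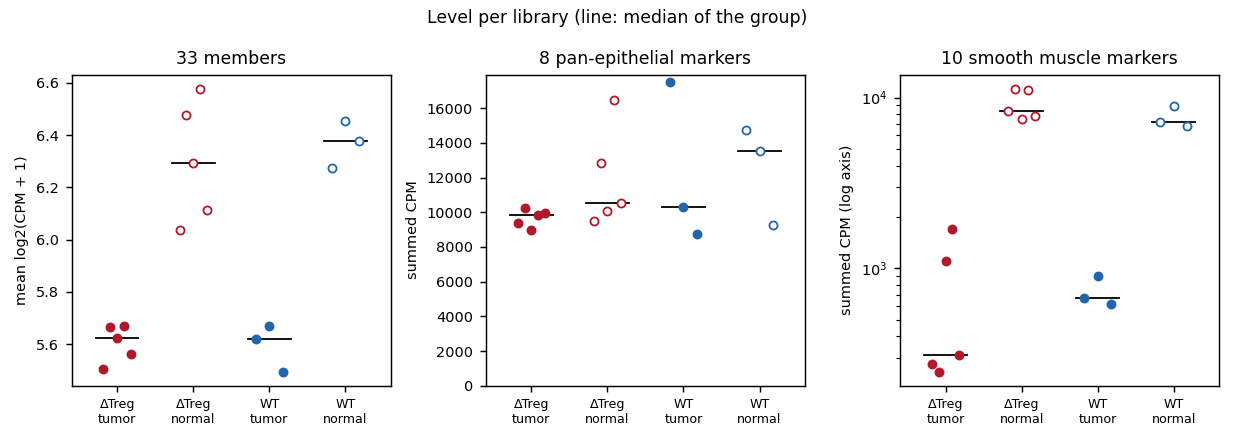
Mean log2(CPM + 1) of the 33 genes, summed CPM of 8 pan-epithelial markers and summed CPM of 10 smooth muscle markers (log axis) in each library, by group, with the group median as a line. The 33 genes separate tumors (5.50 to 5.67) from adjacent normal tissue (6.04 to 6.58), smooth muscle markers do so by a wider margin, and pan-epithelial markers overlap.

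A further 79 genes of the same pathways were listed, of which 74 are in the count table and were tested (Fabp1, Acsm1, Acsm2, Acsm4 and Acsm5 were not analysed here). Of these, 17 were called lower and 5 higher in Il23r ΔTreg tumors, and 21 lower and 3 higher in WT tumors, with medians of -0.53 and -0.46. The shares of all genes to set beside these counts and those of each list are 16.1% lower and 9.53% higher in Il23r ΔTreg mice and 12.9% lower and 12.1% higher in WT mice. For uptake and activation, 3 of 16 were called lower in Il23r ΔTreg mice and 4 of 16 in WT mice, in Il23r ΔTreg mice close to the share of all genes. They included Fabp2, an intestinal fatty acid binding protein, at -4.35 (SE 0.43, adjusted p = 2.20e-06) and -2.87 (SE 0.51, adjusted p = 0.000611), and Cd36, a fatty acid translocase, at -2.59 (SE 0.36, adjusted p = 3.72e-05) and -2.18 (SE 0.46, adjusted p = 0.0019) in Il23r ΔTreg and WT mice. Acacb, which makes the malonyl-CoA that blocks Cpt1 enzymes, was called lower in Il23r ΔTreg mice at -1.15 (SE 0.30, adjusted p = 0.00591) and was at -0.92 (SE 0.39, adjusted p = 0.0739) in WT mice. Acsl4, a synthetase that prefers arachidonic acid, was called higher in Il23r ΔTreg mice at 1.10 (SE 0.26, adjusted p = 0.00304) and was at 0.81 (SE 0.34, adjusted p = 0.0675) in WT mice. The synthetases Acsl3 and Acsl6 were called lower in WT mice, at -1.22 (SE 0.42, adjusted p = 0.0296) and -2.25 (SE 0.44, adjusted p = 0.00112), and were at -0.12 (SE 0.32, adjusted p = 0.784) and -0.27 (SE 0.31, adjusted p = 0.501) in Il23r ΔTreg mice.

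Between tumors of the genotypes, Fabp2 was lower in Il23r ΔTreg mice, with 0.728 ± 0.443 CPM (SD, n = 5), than in WT mice, with 2.82 ± 0.579 CPM (SD, n = 3), at -1.97 (SE 0.44, adjusted p = 0.0375). Acsl6, a long-chain synthetase best known from brain, was higher, with 1.68 ± 0.895 CPM in Il23r ΔTreg tumors (SD, n = 5) and 0.474 ± 0.203 CPM in WT tumors (SD, n = 3), at 1.78 (SE 0.40, adjusted p = 0.0383). These were the only 2 of the 74 called there, 1 lower and 1 higher, against 1.58% and 0.146% of all genes. Neither was called in the difference of the tumor effect (adjusted p = 0.317 for Fabp2 and 0.165 for Acsl6). Calls between tumors depended on single mice. Over all genes 271 were lower and 25 higher, but 0 and 1 without WT mouse2989, and 2 and 1 without Il23r ΔTreg mouse2902.

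For ketone body and short-chain acid use, 4 of 11 genes were called lower and 2 higher in Il23r ΔTreg mice, and 5 lower and 2 higher in WT mice. Acss2 and Acss1, which make acetyl-CoA from acetate in the cytosol and the mitochondrion, were at -2.38 (SE 0.23, adjusted p = 2.10e-06) and -1.24 (SE 0.15, adjusted p = 1.38e-05) in Il23r ΔTreg mice and at -2.21 (SE 0.30, adjusted p = 9.91e-05) and -1.61 (SE 0.20, adjusted p = 5.61e-05) in WT mice. The sodium-coupled butyrate transporter Slc5a8, named here after its values were seen, had 13.4 ± 10.1 CPM in Il23r ΔTreg tumors and 314 ± 66.3 CPM in their adjacent normal tissue (SD, n = 5 each), against 26.3 ± 35.9 CPM in WT tumors and 360.2 ± 64.3 CPM in WT adjacent normal tissue (SD, n = 3 each). Its log2 fold change was -4.55 (SE 0.71, adjusted p = 9.42e-05) in Il23r ΔTreg mice and -3.77 (SE 0.88, adjusted p = 0.00366) in WT mice.

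Slc16a3 (MCT4), the lactate exporter of the same family as Slc16a1, went the other way from Slc16a1. It had 88.8 ± 10.9 CPM in Il23r ΔTreg tumors and 18.5 ± 2.11 CPM in adjacent normal tissue (SD, n = 5 each), against 91.0 ± 31.6 CPM in WT tumors and 12.6 ± 8.03 CPM in WT adjacent normal tissue (SD, n = 3 each), log2 fold changes of 2.27 (SE 0.27, adjusted p = 1.03e-05) and 2.86 (SE 0.36, adjusted p = 5.80e-05). Hmgcll1, an HMG-CoA lyase outside the mitochondrion, was also called higher, at 2.03 (SE 0.29, adjusted p = 4.17e-05) in Il23r ΔTreg mice and 1.19 (SE 0.36, adjusted p = 0.0171) in WT mice.

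Among other mitochondrial genes 3 of 14 were called lower in Il23r ΔTreg mice and 4 of 14 in WT mice. Pccb and Pcca, the subunits of propionyl-CoA carboxylase, were at -1.43 and -1.24 in Il23r ΔTreg mice and at -1.33 and -1.35 in WT mice, and the acyl-CoA dehydrogenase Acad11 was at -1.50 in Il23r ΔTreg mice and -2.11 in WT mice. The 1 gene called higher in that list in Il23r ΔTreg mice, Acaa1b, is a peroxisomal thiolase, at 0.0448 to 1.12 CPM in Il23r ΔTreg tumors and 0.0216 to 0.0934 CPM in their adjacent normal tissue. Among other peroxisomal genes 3 of 19 were called lower and 1 higher in each genotype, no more than the share of all genes in Il23r ΔTreg mice. Pex11a, which promotes peroxisome division, was at -1.19 in Il23r ΔTreg mice and -1.39 in WT mice, and Acox2, the branched-chain acyl-CoA oxidase, was called higher at 2.10 and 2.16.

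Of 14 PPAR partners and targets, 4 were called lower in Il23r ΔTreg mice and 5 in WT mice, and 0 higher in either. The receptor Ppard was at -1.20 (SE 0.15, adjusted p = 1.61e-05) in Il23r ΔTreg mice and -1.45 (SE 0.20, adjusted p = 9.91e-05) in WT mice. Ppargc1b, the second PGC-1 coactivator, was at -1.67 (SE 0.29, adjusted p = 0.000231) in Il23r ΔTreg mice and -2.47 (SE 0.38, adjusted p = 0.000238) in WT mice. Pdk2, of the same kinase family as Pdk4, was called lower at -1.42 in Il23r ΔTreg mice and -1.77 in WT mice, and so was Hnf4a, a nuclear receptor of gut and liver epithelium, at -1.10 and -1.37.

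**Figure D5:**
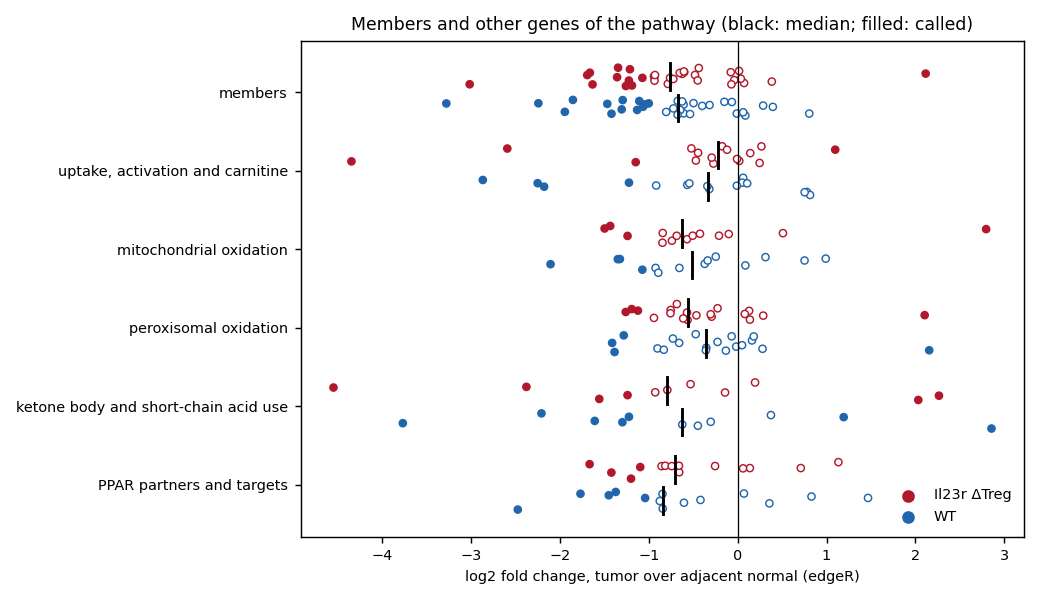
Log2 fold change in tumor over adjacent normal tissue of the 33 genes (top row) and of 74 further genes in 5 lists, in Il23r ΔTreg mice (red) and WT mice (blue), with list medians as black lines and called genes filled. All list medians lie below 0, and the filled points on the right are single genes such as Slc16a3 and Acox2.

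The promoters of the 33 genes were read for the element that PPAR and RXR bind. RefSeq sequence (GRCm38.p6) from 250 bases before to 50 after the gene start was matched for 30 of the 33. The element searched was a direct repeat of AGGTCA with 1 base between the copies, on either strand. It was in 0 of the 30, against 0.0481% of all 27025 genes with such a window, and the looser repeat of AGGNCA with the same spacing in 0, against 0.451%. Both repeats are so rare over all genes that 0 of 30 cannot set these genes apart from the rest. A single AGGTCA, on either strand, was in 5 of the 30 (16.7%), no more than in all genes (18.1%). A match is a description of letters only. The stretches of 4 of the 5 are shown on the gene's strand because these enzymes span the carnitine shuttle and the first oxidation steps. The fifth gene with a match, Pparg, is not shown. Capitals mark AGGTCA or its reverse complement TGACCT.
Cpt1a, chr19:3323187-3323232, plus strand: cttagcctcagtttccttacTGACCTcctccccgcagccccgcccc
Acadvl, chr11:70015490-70015535, minus strand: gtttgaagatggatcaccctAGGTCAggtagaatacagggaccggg
Acadm, chr3:153944867-153944893, minus strand: gTGACCTtcgggctccggtgacactgg
Echs1, chr7:140116479-140116524, minus strand: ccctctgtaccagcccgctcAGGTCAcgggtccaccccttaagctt
The match starts 94, 87, 249 and 83 bases before the gene start in Cpt1a, Acadvl, Acadm and Echs1.

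Among the genes most like the mean of the 33 across the 16 libraries, by Pearson's r of log2(CPM + 1) over 14168 genes, were Ackr4 (0.991), an atypical chemokine receptor, Slc5a6 (0.988), a vitamin transporter for biotin and pantothenate, Clybl (0.987), a mitochondrial lyase, and Ndrg3 (0.985). These values describe libraries that share tissue type and mouse and carry no test.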

How the data were processed

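Whole-tissue RNA of 16 libraries, 1 tumor and 1 adjacent normal from each of 8 mice, was sequenced. Per the labels, the authors used fastp (0.20.0) for read trimming and Salmon (1.4.0) for transcript quantification. They deposited estimated counts per gene as whole numbers, which were used for every result; their limma 3.50.3 and DESeq2 1.34.0 tables, which hold fold changes and p-values, were not used, nor were 64 columns whose names the labels do not map to a sample. The annotation release is not certain, so no coordinates of the counted gene models are given; promoter positions are those of RefSeq on GRCm38.p6. Genes were filtered with edgeR's filterByExpr (minimum count 10), scaled with TMM factors and tested in R 4.3.3 with edgeR 4.0.16 (quasi-likelihood, 4 groups in 1 fit, no block), and p-values were adjusted over all 17122 genes. The fit was tested on simulated data. CPM used TMM library sizes; scores used a pseudocount of 1. Alternatives used limma 3.58.1, DESeq2 1.42.0, other factors and filters, left-out mice and a replicate block. Figures were drawn in Python 3.11.15 with matplotlib 3.10.9.

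The mouse number pairs tumor and adjacent normal tissue of 1 animal. Deviations of the 2 libraries of a mouse from their group means correlated at 0.049 to 0.161 in Il23r ΔTreg mice and at 0.460, -0.399 and 0.488 in mouse2988, mouse2989 and mouse2990. The block changed no call count of the 33 genes. The genes and lists were chosen with earlier results of these data known. Named genes were the members called in either genotype, with every library's value; up to 4 called genes per further list by smallest p in Il23r ΔTreg mice and those called against their list's direction; and the 5 genes most correlated with the mean, of which 1 is not reported here. No 2 libraries held identical values. Mice are separate animals, but each has 1 tumor library, so spread within an animal is not measured.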

Additional observations from a re-analysis of the deposited data

Results flagged for a closer look

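The adjacent normal library of Il23r ΔTreg mouse3883 stood apart from its group in Acsl1, a long-chain acyl-CoA synthetase, with 50.1 CPM against 32.4 to 36.0 CPM in the other 4 mice. This was found by a gap test (Dixon, 95% level) on 66 groups of values, of which 1 was past the limit, and chance flags about 1 in 20 groups. Its tumor had 49.2 CPM.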

How the results depend on the processing

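No log2 fold change of a called gene changed sign under any alternative. Genes called lower numbered 11 in Il23r ΔTreg mice and 13 in WT mice, and with no fold limit 24 and 21, with a fold limit of 1.5 22 and 20; genes called higher were 1 and 0, and 2 and 1 with no fold limit. Leaving out 1 mouse gave 10 to 12 lower in Il23r ΔTreg mice and 7 to 13 in WT mice. The lowest, 7, was without WT mouse2990, when Hadh, Acat1, Decr1, Bdh1, Pparg and Ppargc1a dropped out. Without only the tumor library of WT mouse2988 the counts were 11 and 13. In the 3 Il23r ΔTreg mice of 1 cage label, an alternative chosen after seeing the data, 14 were lower and 1 higher. Between tumors of the genotypes 1 gene, Pdk4, was called higher by DESeq2 and 1 without Il23r ΔTreg mouse2901 (0 to 1 over left-out mice). With the mouse number as a replicate block, 11 and 13 genes were lower and 1 and 0 higher, and it changed no other call of these genes. Pseudocounts of 0.5 and 3 left tumors and adjacent normal samples apart. The causes of these changes were not tested. The fit on the compared groups alone could not be made for that difference. Precision rests on 3 WT mice; Ppara had as few as 12 counts.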
